A study of Mus musculus with 28 samples.

Results

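TDP-43 is an RNA-binding protein that forms aggregates in amyotrophic lateral sclerosis and frontotemporal dementia, and A315T is an amino acid change in its glycine-rich C-terminal part that is found in familial disease. The data described here are the ribosome footprint libraries of MN1 cells that overexpressed the mutant protein, hTDP-43-A315T (2 libraries), or the wild-type protein, hTDP-43 (2 libraries). These 4 libraries, of 28 in the series, were chosen by cell type, library type and transfected plasmid, and not by any measured value. MN1 is a mouse line made by fusing spinal motor neurons with neuroblastoma cells, and the plasmids, driven by a CMV promoter, carried human TDP-43 with FLAG and V5 tags and were transfected transiently. The mouse Tardbp gene stayed in all cells, and 1 culture per plasmid was made on each of 2 dates (replicates 1 and 2), together with a culture transfected with GFP. All MN1 cultures were treated with 100 µg/mL cycloheximide for 3 min before lysis. Total mRNA of the same cultures was used as a separate readout of mutant against wild-type protein. So were footprints of cortical neurons from transgenic mice that express either protein. These were 3 cultures for each protein, taken at embryonic day 16 and kept 14 days in vitro, without that treatment.

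A ribosome that is translating an mRNA shields a short stretch of it from RNase, and the number of such fragments from a gene reflects both how much mRNA there is and how many ribosomes sit on it. Fragments of other RNAs, such as spliceosomal RNAs, Y RNAs and ribosomal RNA, can enter the same libraries when they sediment with monosomes or are held in stable particles, so not every read of a footprint library comes from translation. TDP-43 binds UG-rich RNA in the nucleus and the cytoplasm, takes part in splicing, transport and stability of its targets, and is found with ribosomes and in stress granules.

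Reads assigned to genes numbered 631354 and 332370 (replicates 1 and 2) for hTDP-43 against 1219222 and 521904 for the mutant, so the mutant library was 1.93 and 1.57 times deeper on the 2 dates. A count of 3 corresponded to between 2.46 and 9.03 CPM, the counts scaled to a common library size, in these libraries. Tardbp (chromosome 4, 148612382 to 148627019 in GRCm38) had 426 and 473 footprint CPM in hTDP-43 cultures, 406 and 394 in mutant ones and 323 and 302 with GFP. Reads of the human plasmid can align to the mouse gene within the mismatches that the aligner allowed, so Tardbp does not tell the plasmids apart, and its log2 fold change between them was -0.15 (standard error 0.14, adjusted p = 0.998). The neuronal character of the line was visible in Prph, which encodes peripherin (726 to 1134 CPM), Tubb3, the neuronal beta-tubulin (520 to 617 CPM) and Uchl1 (492 to 745 CPM). Of 23 neuronal and motor neuron markers, 14 passed the filter on low counts. The motor neuron genes Isl1 and Slc18a3 were among them, whereas Chat had 0 to 3 counts and Mnx1 had 0 in each library. Isl2, Lhx3, Lhx4 and Slc5a7 were below it too. So were the neuronal genes Map2 (6 to 9 counts), Stmn2 (1 to 9) and Nefl (1 to 6). All 18 markers of glia, endothelium and fibroblasts lay below that filter, with at most 12 counts of any in a library, and 8 of them, among them Gfap, Mog and Cx3cr1, were at 0 in the 4 libraries.

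Footprints of 36 genes were higher and those of 18 were lower with hTDP-43-A315T than with hTDP-43, out of 7653 tested (0.706% of the genes tested, edgeR's quasi-likelihood test with culture date as a block, Benjamini-Hochberg adjusted p below 0.05). Of the genes called, 27 of 36 that rose and 10 of 18 that fell encode proteins, as do 98.9% of all genes tested. Among them were the receptors Epha5, Epha8 and Pth1r, the regulators Camta1 and Jmjd6, and the enzyme regulator Mid1ip1. The genes that fell included 4 subunits encoded by the mitochondrial genome, ribosomal RNA and 3 small nuclear RNAs. Of the rises, 35 of 36 had the same direction on both dates, and of the falls 11 of 18. CPM values of the 2 groups did not overlap for 23 of the 36 genes that rose, where 14.4% of all genes tested were higher without overlap, and for 6 of the 18 that fell, where 15.3% of all genes were lower without overlap. The split depended on single libraries, and it was 17 higher and 22 lower without hTDP-43 replicate 1 and 47 higher and 16 lower without hTDP-43 replicate 2 (fits that include the GFP libraries). The calls depended on the pairing by date. Without the block, 0 genes passed (edgeR, smallest adjusted p = 0.103, 179 genes at an unadjusted p below 0.05). DESeq2 called 1 gene with the block (Epha5) and 1 without it (Dennd4a). The block leaves 1 residual degree of freedom, and the spread of each gene was taken almost entirely from the trend over all genes (207.6 prior degrees of freedom).

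**Figure D1:**
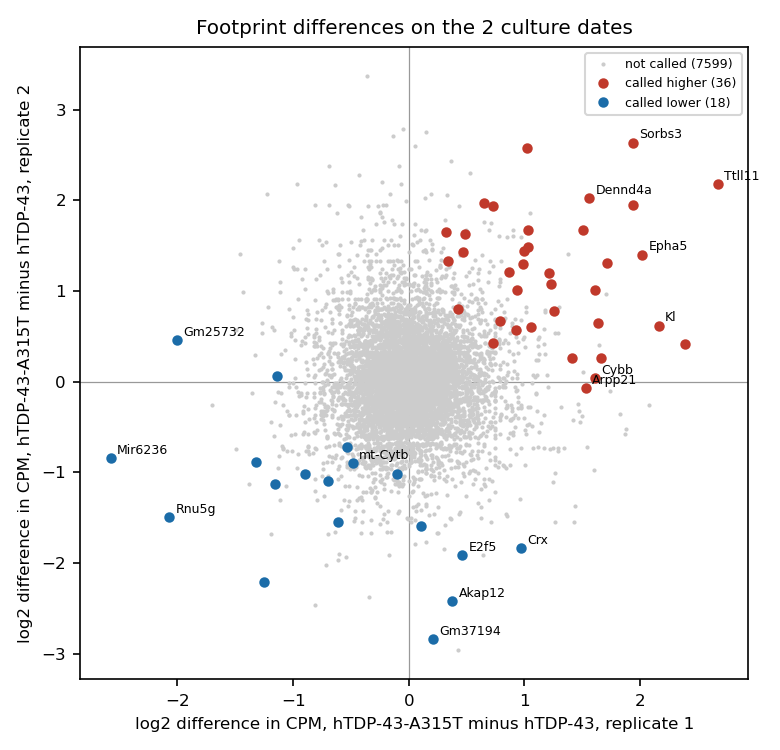
Each point is a gene, with the log2 difference in footprint CPM between hTDP-43-A315T and hTDP-43 on replicate 1 (horizontal axis) against that on replicate 2 (vertical axis). Of the 36 genes called higher (red), 35 lie in the upper right quadrant, while 7 of the 18 called lower (blue) lie outside the lower left one.

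Several receptors and a few proteins linked to adhesion are described first, in an order by known role that was set after the calls were seen. Epha5, an Eph receptor tyrosine kinase of axon guidance, had 260 and 176 CPM with hTDP-43 against 1062 and 469 with the mutant, and all values of the mutant were above those of the wild-type protein. This is a 3.46-fold rise (log2 1.79, standard error 0.16, adjusted p = 1.24e-19). Epha8, of the same family, had 104 and 42.4 CPM with hTDP-43 against 246 and 92.6 with the mutant, so that the groups overlapped across dates but not within one (2.33-fold, adjusted p = 1.14e-06). Of the 22 Eph receptors and ephrins only 3 had enough footprints to be tested, and Efna5, a ligand of the family, had a log2 fold change of 0.18 with 3 to 19 counts per library. Pth1r, the receptor of parathyroid hormone, had 41.8 and 33.3 CPM with hTDP-43 against 124 and 112 with the mutant (3.08-fold, log2 1.62, standard error 0.25, adjusted p = 3.49e-07). The replicates of each group lay close together for this gene, and the groups did not overlap. Tspan5, a tetraspanin that guides the protease ADAM10 to the cell surface, had 46.4 and 30.3 CPM with hTDP-43 against 158 and 79.1 with the mutant (3.18-fold, adjusted p = 8.92e-08). Sorbs3 encodes vinexin, an adapter at cell adhesions. Its 66 and 1 counts with hTDP-43 (102 and 3.03 CPM) stood against 461 and 17 with the mutant (399 and 32.8 CPM), which gave ratios of 3.91 on replicate 1 and 10.8 on replicate 2, the latter with a 95% counting interval from 1.7 to 452. Epha5 stayed past the threshold without each of the 4 libraries in turn, in a fit with the GFP libraries. Without hTDP-43 replicate 1, the calls of Epha8 (adjusted p = 0.21), Tspan5 (0.59), Pth1r (0.08) and Sorbs3 (0.14) were lost with log2 fold changes of 1.20, 1.04, 1.49 and 3.29, and Epha8 was also lost without hTDP-43-A315T replicate 1 (1.08, adjusted p = 0.18).

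The next genes act in the cytoskeleton, membrane traffic and the nucleus. Ttll11, an enzyme that adds glutamate chains to tubulin, had the highest fold change of the genes called (7.11-fold, log2 2.83, standard error 0.36, adjusted p = 1.11e-10). It was counted 12 and 1 times with hTDP-43 against 153 and 12 times with hTDP-43-A315T, and the ratio on replicate 2 was 7.64 with a 95% counting interval from 1.13 to 327. Dennd4a, a DENN-domain protein that activates Rab GTPases, had 147 and 87.9 CPM with hTDP-43 against 439 and 367 with the mutant. The groups were far apart on both dates (3.35-fold, log2 1.75, standard error 0.16, adjusted p = 5.45e-19). Of the other 10 DENN-domain genes tested, 0 passed, with log2 fold changes from -0.43 to 0.54. Camta1 is a calmodulin-binding transcription activator, and its footprints were 27.9 and 194 CPM with hTDP-43 against 59.7 and 625 CPM with the mutant. The date moved this gene more than the plasmid did (log2 3.24 higher on the second date, against 1.53, standard error 0.18, adjusted p = 1.45e-11, for the mutant). Jmjd6, a nuclear oxygenase that hydroxylates lysines of splicing factors, had 144 and 87.9 CPM with hTDP-43 against 444 and 179 with the mutant (2.74-fold, adjusted p = 5.35e-13). Spag4, a SUN-domain protein of the nuclear envelope, was counted only 5 and 6 times with hTDP-43 against 60 and 13 with the mutant (3.67-fold, adjusted p = 0.00967). Rfc1, the large subunit of the clamp loader of DNA replication, had 145 and 118 CPM with hTDP-43 against 254 and 189 with the mutant (1.69-fold, adjusted p = 0.00137). Dennd4a and Jmjd6 stayed past the threshold without each library in turn. Without hTDP-43 replicate 1, the calls of Ttll11 (log2 2.65, adjusted p = 0.54), Rfc1 (log2 0.64, adjusted p = 0.48) and Spag4 (log2 0.31, adjusted p = 0.97) were lost. With the libraries of each date thinned to equal totals Rfc1 had an adjusted p of 0.052. Spag4 (adjusted p = 0.79) and Rfc1 (0.11) were also lost without hTDP-43-A315T replicate 1, and Camta1 without hTDP-43-A315T replicate 2 (0.67, adjusted p = 1) or hTDP-43 replicate 2 (adjusted p = 0.055).

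Mid1ip1 and Srxn1 belong to metabolism and stress defence. Mid1ip1, which promotes polymerisation of acetyl-CoA carboxylase and with it fatty acid synthesis, had 521 and 306 CPM with hTDP-43 against 1002 and 621 with the mutant. The ratios of the 2 dates were nearly equal (1.92 and 2.03), and the gene stayed past the threshold without each of the 4 libraries in turn (1.97-fold, log2 0.98, standard error 0.15, adjusted p = 8.95e-08). The 9 other genes of its pathway that could be tested had 0 calls, and the log2 fold change was 0.07 for Fasn, 0.03 for Scd2 and 0.16 for Acly. Srxn1, the sulfiredoxin that repairs oxidised peroxiredoxins, had 34 and 33.3 CPM with hTDP-43 against 113 and 40.5 with the mutant. The mutant value was far above the others only on replicate 1 (2.55-fold, adjusted p = 0.000999), and without that library its log2 fold change was 0.36 (adjusted p = 0.97). It was also lost without hTDP-43 replicate 1 (0.77, adjusted p = 0.77). None of the other 17 NRF2 target genes tested passed.

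Camta1, Dennd4a, Mid1ip1 and Pth1r had been chosen by the study from these samples, so that all 4 being among the 36 rises is no independent evidence of a direction. Their levels in GFP cultures lay nearer to hTDP-43 than to hTDP-43-A315T on both dates. Dennd4a had 154 and 79.3 CPM with GFP, Mid1ip1 549 and 171, Pth1r 60.2 and 24.9, and Camta1 29.6 and 97.4. The GFP value lay between those of the other groups on both dates for 11 of the rises and 5 of the falls. The share of all genes with that order was not counted. The mutant was above GFP on both dates for 35 of the rises, where 28.9% of all genes tested were. It was below GFP for 14 of the falls, where 27.0% of all genes were. The calls rest on the same mutant libraries, so these counts are no independent evidence either.

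**Figure D2:**
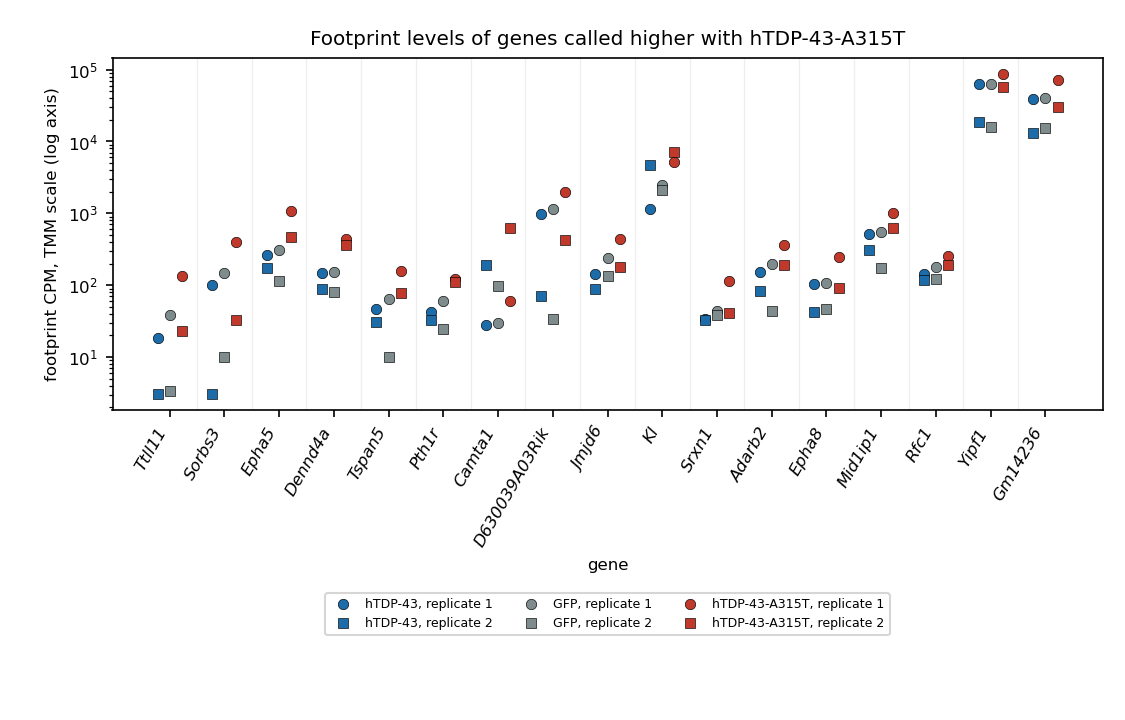
Footprint CPM on a log axis is given for 17 of the genes called higher with hTDP-43-A315T, with a point per library (circles, replicate 1; squares, replicate 2). Red points lie above the blue point of the same date for each gene, as for Epha5 with 1062 and 469 CPM against 260 and 176, while the dates differ widely for Camta1, Sorbs3 and D630039A03Rik.

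Many of the genes that changed had an unusually high number of footprints for the amount of their mRNA. The ratio was taken from the GFP cultures, which the comparison does not use, as the difference in log2 CPM between footprints and total mRNA. Of the 36 genes that rose, 24 were above the 90th percentile of this ratio among all genes tested, and of the 18 that fell, 7 were. Another 5 of the falls, and 0 of the rises, were among the 765 genes with the lowest ratios. Of the 766 genes above that percentile 4.05% were called, against 0.334% of the other 6887. Epha5 had 308 and 114 footprint CPM but 12.2 and 5.97 mRNA CPM with GFP (log2 ratio 4.31). Kl, which encodes the anti-ageing protein Klotho, had 2489 and 2106 footprint CPM against 85.2 and 164 mRNA CPM (4.27). Tspan5 (4.12), Adarb2 (4.22), Cybb (4.24), H2-Bl (4.41), Arpp21 (4.66), Fgg (4.31) and Pip5kl1 (3.85) had similar ratios, though several of these genes are known for expression in other tissues, such as Fgg, the fibrinogen gamma chain of liver, and Cybb, the phagocyte NADPH oxidase subunit. Jmjd6, Srxn1, Epha8, Jade2, Pard3 and Spag4 lay below the median of all genes, with log2 ratios from -0.71 to -0.31, and Dennd4a was near it (0.02). Total mRNA was selected by poly(A) and footprints were not, so the ratio of an RNA without a poly(A) tail does not measure ribosomes per mRNA. In the neuron libraries of both transgenic groups, 14 of the 36 genes were above the 90th percentile of the same ratio.

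**Figure D3:**
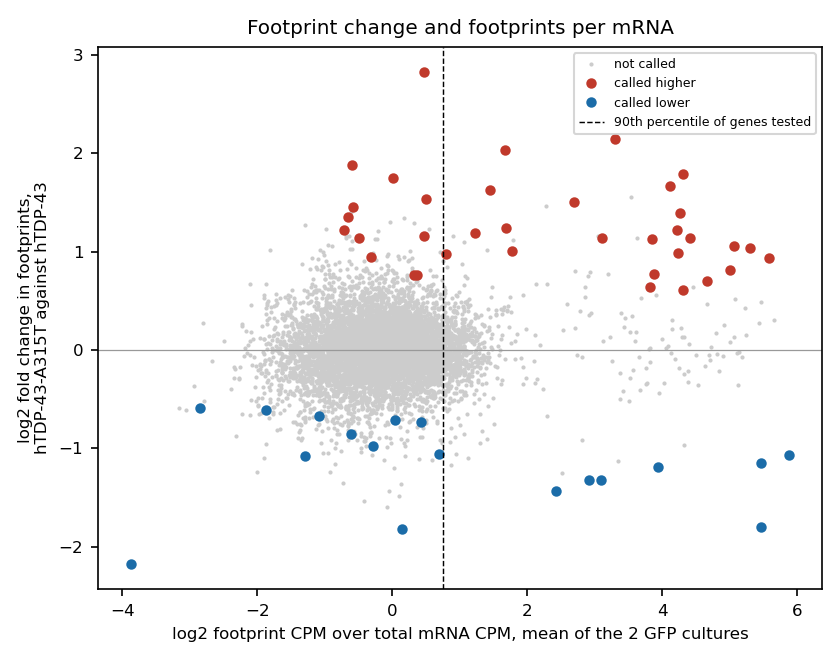
The horizontal axis gives the log2 ratio of footprint to total mRNA CPM in the 2 GFP cultures (mean), and the vertical axis the log2 fold change of footprints between mutant and wild-type protein. To the right of the dashed line, the 90th percentile, lie 24 of the 36 genes called higher (red) and 7 of the 18 called lower (blue).

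Kl had 1143 and 4694 footprint CPM with hTDP-43 against 5125 and 7214 with the mutant. The mutant was above both wild-type values on each date, but by 4.48 times on replicate 1 and by 1.54 times on replicate 2 (log2 fold change 1.39, standard error 0.19, adjusted p = 2.51e-09). Without hTDP-43 replicate 1 it was not called (0.45, adjusted p = 0.11), nor with the GFP libraries in the fit (1.26, adjusted p = 0.12) or with a robust spread (adjusted p = 0.99). Adarb2, a brain relative of the RNA-editing enzymes that does not edit itself, had 155 and 81.8 CPM with hTDP-43 against 361 and 191 with the mutant, with a ratio of 2.33 on both dates. Without hTDP-43 replicate 1 its log2 fold change was 0.89 (adjusted p = 0.28). Sspo, which encodes SCO-spondin, a secreted protein of the cerebrospinal fluid, had 91.3 and 27.3 CPM with hTDP-43 against 189 and 81 with the mutant (2.23-fold, adjusted p = 6.13e-05), and was not called without hTDP-43 replicate 1 (1.25, adjusted p = 0.44). Cybb and Arpp21 rose on replicate 1 alone, where their ratios were 3.08 and 2.91, against 1.03 and 0.952 on replicate 2. The other rises among protein-coding genes were D630039A03Rik (976 and 69.7 CPM with hTDP-43, 1988 and 428 with the mutant), Jade2, Plxdc2, Pip5kl1, Scnm1, Pard3, Rfxap and Fgg, with fold changes from 1.53 to 2.84. In the 4 fits without a library, D630039A03Rik had log2 fold changes from 0.90 (without hTDP-43-A315T replicate 2) to 3.27 (without hTDP-43-A315T replicate 1). It did not pass in the fit of all 6 libraries (adjusted p = 0.071) or with a robust spread (adjusted p = 0.987). Without hTDP-43 replicate 1 the other 7 lost their calls, with log2 fold changes of 0.25 for Scnm1, 0.41 for Rfxap, 0.52 for Fgg, 0.56 for Pip5kl1, 0.70 for Pard3, 0.75 for Jade2 and 0.99 for Plxdc2, and without hTDP-43-A315T replicate 2 Fgg had 0.21. Rises in the other classes included the pseudogene H2-Bl (2.20-fold) and the unconfirmed transcripts Gm37262 (4.42-fold, with 11 and 1 counts for hTDP-43 and a ratio on replicate 2 of 6.37, counting interval 0.905 to 276) and Gm43078 (1.76-fold).

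The genes with the most reads were among those that changed. Yipf1, which encodes a Golgi membrane protein, took 6.43% and 1.84% of the assigned reads with hTDP-43 against 8.32% and 5.66% with the mutant. Its CPM was 62788 and 18486 against 87789 and 56978, a 2.08-fold rise (adjusted p = 0.00209) that was larger on replicate 2 (3.08 times) than on replicate 1 (1.4 times), and without hTDP-43-A315T replicate 2 it was not called (log2 0.42, adjusted p = 0.51). With a filter at a mean of 50 counts the log2 fold changes of Yipf1, Gm14236 and Gm37194 were 1.05, 1.03 and -1.32 and their calls were lost (adjusted p = 0.89, 0.78 and 0.14). Gm14236, an antisense transcript that shares 90 exonic bases with Ripor3 on the other strand, rose 2.05-fold from 38696 and 13147 CPM to 70637 and 30292 (adjusted p = 0.000801). The counting did not use strand, so its reads cannot be told from those of Ripor3 in the shared bases. The same limit holds for other called genes, among them Mid1ip1 (445 bases shared with Gm14493) and Pip5kl1 (472 with 9430097D07Rik). It also holds for Jmjd6 (172 with Mettl23) and Pth1r (95 with Myl3). Jmjd6 shares another 173 bases with Gm27401 on its own strand. Gm37194, an unconfirmed transcript, took 5.08% of the reads of hTDP-43 replicate 2. It had 1979 CPM with hTDP-43 against 2290 with the mutant on replicate 1, and 51217 and 7187 on replicate 2. Dact3, which had the next most reads there, was not called (log2 fold change 0.47, adjusted p = 0.754), nor were Lars2 (-0.36, adjusted p = 0.931) and Actb (0.16, adjusted p = 0.998). The 10 genes with the most reads together took 14.9% and 15.5% with hTDP-43 against 19.1% and 16.1% with the mutant.

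Exons of some of these genes hold short stretches that are identical to annotated nuclear tRNA genes. A search for runs of at least 18 bases, on either strand and with the CCA end added to each of 403 tRNAs of the RefSeq annotation, found one in 6 of the 50 called genes that could be searched and in 3.33% of all 7633 tested genes searched. All 6 genes had risen, and all 6 were above the 90th percentile of footprints per mRNA. The stretches are shown because all 6 genes had many footprints for their mRNA, and they are written 5′ to 3′ on the strand of the gene, in GRCm38.
Yipf1 (chr4:107320101-107320122, plus strand, exon of a non-coding transcript, complement of tRNA for glutamic acid): ctaaccactagaccaccaggga
Gm43846 (chr3:104957660-104957696, minus strand, exon, tRNA for glycine): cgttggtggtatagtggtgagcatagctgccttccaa
Gm43078 (chr3:35413894-35413911, plus strand, exon, complement of tRNA for lysine): tggcgcccgaacagggac
Adarb2 (chr13:8767045-8767062, plus strand, UTR, tRNA for lysine): gtccctgttcgggcgcca
Arpp21 (chr9:112175830-112175848, minus strand, exon of a non-coding transcript, tRNA for alanine): gtgtagctcagtggtagag
Fgg (chr3:83012836-83012854, plus strand, coding exon, complement of tRNA for alanine): tggtggagatgccggggat
The stretch of Adarb2 and that of Gm43078 come from opposite strands of the same tRNA end. Counts are summed over each gene, so where in the gene the reads lie was not tested.

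Short non-coding RNAs moved in both directions. The 2 with the most reads among those that rose are written out first, in lower case throughout.
Rny3 (chr6:47781624-47781725, plus strand): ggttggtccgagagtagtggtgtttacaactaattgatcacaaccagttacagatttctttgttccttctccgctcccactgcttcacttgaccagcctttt
Rnu12 (chr15:83149644-83149794, plus strand): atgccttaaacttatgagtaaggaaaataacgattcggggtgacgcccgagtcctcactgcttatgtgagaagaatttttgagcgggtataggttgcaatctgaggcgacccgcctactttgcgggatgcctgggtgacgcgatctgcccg
Rny3, the Y3 RNA of Ro ribonucleoproteins, had 415 and 136 CPM with hTDP-43 against 688 and 529 with the mutant (2.28-fold, log2 1.19, standard error 0.16, adjusted p = 8.9e-10), and with a robust spread it was not called (adjusted p = 0.81). Rnu12, the U12 RNA that recognises the branch site of minor introns, had 1408 and 424 CPM with hTDP-43 against 1760 and 1343 with the mutant, a difference found mainly on replicate 2 (1.91-fold, adjusted p = 1e-05). Without hTDP-43-A315T replicate 2 its log2 fold change was 0.38 (adjusted p = 1), and without hTDP-43 replicate 2 it was 0.57 (adjusted p = 0.089). Vaultrc5, a vault RNA, rose 1.56-fold. By contrast, 3 genes of the U5 RNA, which holds the exon ends together in the spliceosome, fell on both dates. Rnu5g and Gm25313 differ at 3 of 116 bases, and Gm23143 differs from them at 10 and 11. A read from bases that the copies share cannot be placed on 1 of them. Rnu5g had 34 and 145 CPM with hTDP-43 against 6.06 and 50.2 with the mutant (fold change 0.288, adjusted p = 2.34e-05). Gm25313 had 173 and 1306 against 76.2 and 596 (0.451, adjusted p = 1.17e-09), and Gm23143 had 104 and 445 against 39.8 and 239 (0.477, adjusted p = 8.03e-07). The 3 genes kept one order of dates in every group, with more on replicate 2, and the mutant was below hTDP-43 and below GFP on each date. Of the 9 genes tested from a list of small nuclear and related RNAs, 2 rose (Rnu12 and Gm24270, the latter annotated as a miRNA gene, with 46.4 and 39.4 CPM against 74.5 and 162) and 3 fell, where 0.47% and 0.235% of all genes tested did, and Rn7sk, Rpph1, Rmrp and Gm23287 were not called.

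Mir6236 had the largest fall, with 158 and 57.6 CPM with hTDP-43 against 24.2 and 30.9 with the mutant (fold change 0.221, log2 -2.18, standard error 0.27, adjusted p = 7.37e-11). The GFP libraries had 37 and 36.2 CPM, so that hTDP-43 replicate 1 stood above the 5 other libraries, and without it the log2 fold change was -1.04 (adjusted p = 0.58). Without hTDP-43-A315T replicate 1 it was -1.41 (adjusted p = 0.11). The locus lies on chromosome 9 from 110281287 to 110281409, and the mature miRNA in RefSeq, with its seed in capitals, is the following.
miR-6236 (chr9:110281353-110281371, plus strand): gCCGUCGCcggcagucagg
CT010467.1, annotated as ribosomal RNA on chromosome 17, fell from 4210 and 15353 CPM to 2756 and 5245 (fold change 0.474, adjusted p = 1.07e-05), and stayed past the threshold without each library in turn. It shares 923 exonic bases with AY036118 on its own strand and 1244 with Gm42418 on the other, and reads in shared bases cannot be told apart. AA474408 fell on replicate 1 alone (1561 against 709 CPM, and 630 against 660 on replicate 2). Reads of annotated non-coding RNAs had been removed by the authors before alignment, and the reads counted on these genes are those that passed that step.

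All 8 mitochondrially encoded protein genes with enough footprints were lower with hTDP-43-A315T on both dates, and 4 of them passed the test, where 0.235% of all genes tested fell. The median of the 8 genes was -0.66 on the log2 scale, against 0.0042 over all genes. These mRNAs are translated by mitochondrial ribosomes, which cycloheximide does not stop. The cytochrome b gene mt-Cytb had 486 and 624 CPM with hTDP-43 against 346 and 334 with the mutant (fold change 0.626, adjusted p = 0.00106). The oxidase subunit mt-Co1 had 422 and 361 against 291 and 218 (0.655, adjusted p = 0.00561), so that for both genes all mutant values were below all wild-type ones. The complex I subunits mt-Nd2, with 99 and 112 CPM against 52 and 54 (0.51, adjusted p = 0.00861), and mt-Nd6, with 144 and 130 against 87.5 and 59.8 (0.555, adjusted p = 0.00708), showed the same separation. The 4 that did not pass were mt-Nd1 (-0.64), mt-Nd4 (-0.53), mt-Nd5 (-0.46) and mt-Atp8 (-0.94, 7 to 52 counts). Their total mRNA had a median of -0.38 in the same cultures, with 0 of 8 called. With GFP, mt-Cytb had 416 and 679 CPM, mt-Co1 345 and 447, mt-Nd2 65.5 and 108 and mt-Nd6 122 and 125. On replicate 2 the GFP values of the 4 genes were nearer to hTDP-43 than to the mutant, and on replicate 1 those of mt-Co1 and mt-Nd2 were nearer to the mutant. The nuclear-encoded subunits of the respiratory chain had a median of 0.01 in footprints (44 tested, 0 called). In the fit of all 6 MN1 footprint libraries none of the 4 genes passed, with adjusted p-values of 0.096 for mt-Cytb, 0.27 for mt-Co1, 0.10 for mt-Nd2 and 0.083 for mt-Nd6. In the fits that leave out a library, all 4 were lost without hTDP-43-A315T replicate 2 (log2 fold changes from -0.80 to -0.40) and 3, mt-Cytb excepted, without hTDP-43 replicate 1. With thinned libraries mt-Nd2 had an adjusted p of 0.092 and the other 3 passed. Another 5 mitochondrially encoded genes had 0 or 1 count.

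**Figure D4:**
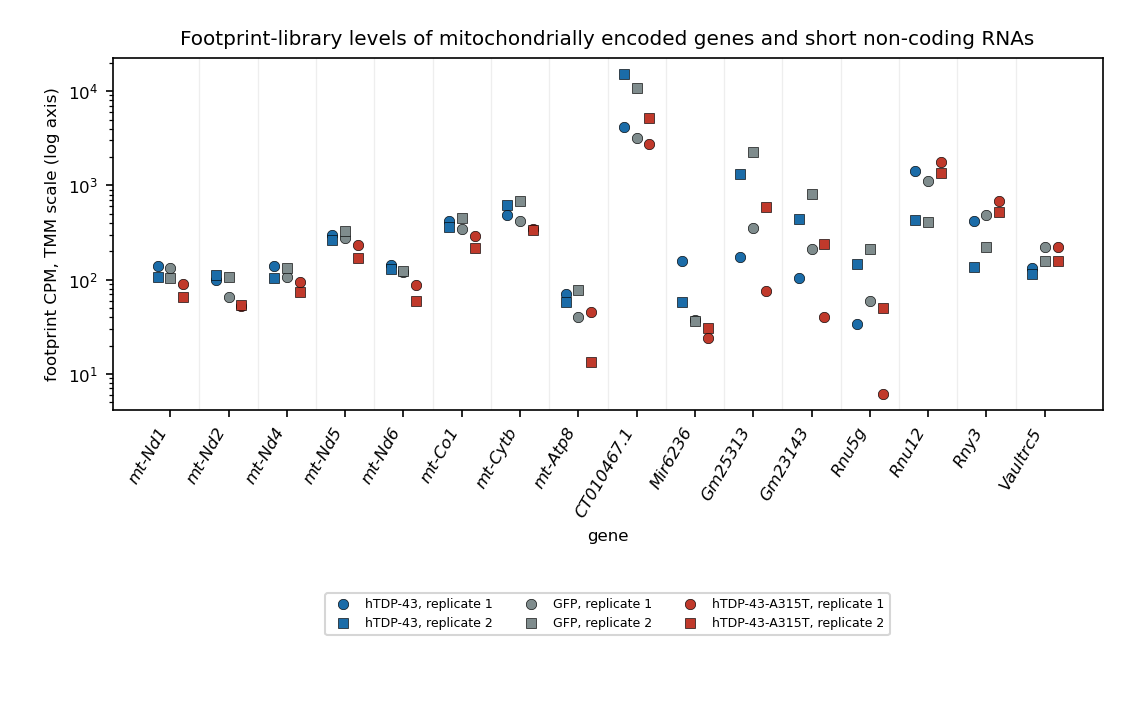
Footprint-library CPM on a log axis is given for the 8 tested mitochondrially encoded genes, ribosomal RNA, Mir6236, 3 U5 genes and 3 further short RNAs, with a point per library (circles, replicate 1; squares, replicate 2). The mitochondrial genes and the U5 genes are lower with hTDP-43-A315T (red) than with hTDP-43 (blue) on each date, while Rnu12, Rny3 and Vaultrc5 are higher.

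Other genes fell only on replicate 2. E2f5, a cell cycle transcription factor, had 29.4 CPM with hTDP-43 against 41.6 with the mutant on replicate 1, and 2146 and 569 on replicate 2 (fold change 0.399, adjusted p = 1.86e-08). Crx, a photoreceptor transcription factor, had 15.5 and 32.9 on replicate 1 and 521 and 145 on replicate 2, and Akap12, Chrd and Gm37194 showed the same opposite signs, with the ratio above 1 on replicate 1. Without hTDP-43 replicate 2, the log2 fold changes of Crx, E2f5 and Chrd became 1.33, 0.38 and 0.38, and that of Akap12 without hTDP-43-A315T replicate 2 became 0.15. Gm25732 had the reverse pattern, with 637 and 157 CPM on replicate 1 and 1043 and 1435 on replicate 2, and its value was 0.64 without hTDP-43 replicate 1. Over all 54 called genes, the difference between the dates was larger than that between the plasmids in 25. Taf5l, a subunit of histone acetylase complexes, had 63.4 and 58.9 CPM on replicate 1 and 752 and 370 on replicate 2. Gmds, which makes GDP-fucose precursors, was counted 17 and 12 times with hTDP-43 against 11 and 3 times with hTDP-43-A315T (fold change 0.283, adjusted p = 0.0355). The ratio on replicate 2 was 0.159 with a 95% counting interval from 0.0288 to 0.59, and the gene was not called in any of the 4 fits without a library.

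Most gene groups related to TDP-43 and to stress had no member past the threshold, where 0.706% of all genes tested were, so that lists of these sizes would hold few calls or none at that share. The 28 tested genes of amyotrophic lateral sclerosis and frontotemporal dementia had 0 calls and a median log2 fold change of -0.02, with Pfn1 at 0.10 (1151 to 1352 CPM) and Sqstm1, which encodes the autophagy receptor p62, at 0.02. The 14 tested mRNAs known as targets of TDP-43 had 0 calls and a median of -0.02, among them Map1b, a microtubule protein whose mRNA TDP-43 binds (1052 and 1152 CPM with hTDP-43, 1133 and 1059 with the mutant). There were 0 calls among 27 genes of the integrated stress response (median 0.07), 20 chaperones of the endoplasmic reticulum (-0.00), 20 cytosolic heat shock proteins (-0.12), 34 hnRNP and SR proteins (-0.04), 21 stress granule proteins (-0.04), 44 translation factors (-0.01) and 31 proteasome subunits (-0.04). Cytosolic ribosomal proteins had 0 of 79 called in footprints (median -0.08), while in total mRNA the median was -0.26 and 4 of 79 fell, where 0.198% of all genes tested did (Rps26, Rpl36, Rps28 and Rps29, by 0.46 to 0.67 on the log2 scale). Glycolytic enzymes had a median of 0.13 with 14 of 18 above 0 and 0 called, as with Aldoa at 0.32. Immediate-early genes (20 tested), cholesterol synthesis (23), interferon-stimulated genes (13), replication-dependent histones (26), tubulins (10) and the 14 neuronal markers also had 0 calls, with medians from -0.05 to 0.09. In a list of 38 cell cycle genes E2f5 was called and the median was 0.02.

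Total mRNA of the same cultures was compared to see which footprint changes were paralleled there. Of 10080 genes tested with the block, 56 were higher (0.556%) and 20 lower (0.198%), and without the block 0 passed (355 at an unadjusted p below 0.05). Of the 33 genes that rose in footprints and could be tested in mRNA, 7 also rose in mRNA, and 25 had a value above 0. They were Spag4 (log2 1.21), Dennd4a (0.74), Kl (0.70), Epha8 (0.65), Rfxap (0.60), Gm14236 (0.59) and Jmjd6 (0.46), with adjusted p-values from 0.00563 to 0.0435. The mRNA of Dennd4a was 103 and 89.5 CPM with hTDP-43 against 152 and 173 with the mutant. Epha5 mRNA had 23.1 and 8.95 CPM against 23.2 and 12.7 (log2 0.16, adjusted p = 0.9), and Mid1ip1 mRNA 172 and 200 against 198 and 203 (0.12, adjusted p = 0.771), so the 2 groups overlapped for both genes. Of the 17 genes that fell and were tested, 0 were called lower in mRNA, and 9 had a value below 0. Leaving out single libraries gave between 60 and 578 called mRNAs, and in 3 of the 4 fits the falls outnumbered the rises. There were 154 higher and 424 lower without hTDP-43-A315T replicate 2, 58 and 148 without hTDP-43 replicate 2, 102 and 115 without hTDP-43-A315T replicate 1, and 34 and 26 without hTDP-43 replicate 1.

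Whether footprints changed beyond mRNA was tested with an interaction term over 8 libraries. It passed in 9 of 10029 genes (0.0897%), 6 higher (0.0598%) and 3 lower (0.0299%), all of them among the 54 footprint calls. Footprints rose more than mRNA for Sorbs3 (log2 difference 2.13, standard error 0.41), Epha5 (1.66, 0.33), H2-Bl (1.43, 0.28), Rfc1 (1.11, 0.24), Dennd4a (1.04, 0.24) and Rny3 (1.01, 0.23), with adjusted p-values from 0.00543 to 0.0474. They fell more than mRNA for Gm37194 (-1.41, 0.28), CT010467.1 (-1.42, 0.23) and Mir6236 (-2.36, 0.32). Rny3, CT010467.1 and Mir6236 are annotated as non-coding RNAs, and total mRNA was selected by poly(A). For them the difference does not measure ribosomes per mRNA. For the study's other candidates the difference was 0.37 for Camta1 (adjusted p = 1), 0.84 for Mid1ip1 (adjusted p = 0.087) and 0.73 for Pth1r (adjusted p = 1). With only the culture as a block 4 genes passed, and with no replicate block 0 (231 at an unadjusted p below 0.05).

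Cortical neurons gave a contrast of mutant against wild-type protein in cultures that share no sample with MN1 cells. Each protein came from its own transgenic line. The paper reports somewhat more mutant than wild-type protein in these neurons, and similar levels of both in MN1 cells. With the replicate number as a block, 15 of 8367 genes rose in neuron footprints (0.179%) and 0 fell (422 at an unadjusted p below 0.05, and 0 calls without the block). Of the 32 genes that rose in MN1 cells and could be tested in neurons, 26 had a value above 0 and 7 passed, which is 7 of the 36 rises in MN1 cells and 7 of the 15 in neurons. They were D630039A03Rik (log2 2.70), Fgg (1.74), Mid1ip1 (1.66), Rfc1 (1.20), Rny3 (1.10), Gm43078 (0.86) and Rnu12 (0.84). On replicates 1, 2 and 3, D630039A03Rik had 143, 0 and 0 CPM with wild-type hTDP-43 against 913, 22.4 and 9.97 with the mutant. A count of 3 corresponded to 15.6 and 18.1 CPM in the hTDP-43 neuron libraries of replicates 2 and 3, so values there rest on few reads. Mid1ip1 had 40.1, 30.6 and 31.9 CPM in the wild-type cultures against 149, 46.9 and 42.9 in the mutant ones (replicates 1, 2 and 3), so that the mutant was higher on each date and by most on replicate 1. Fgg had 136, 66.3 and 31.9 CPM against 508, 153 and 50.9. Rfc1 had 95.25, 50.97 and 51.01 CPM against 252.6, 59.1 and 61.8. The neuron calls depended on the first date: without replicate 1 a single gene passed in neurons (1 lower, 0 higher), against 47 without replicate 2 and 42 without replicate 3. The hTDP-43-A315T library was the deeper one on every date in both cell types. In neurons, reads numbered 2389229, 192008 and 166064 for hTDP-43 against 2528820, 473805 and 1042983 for the mutant. Only the MN1 libraries were thinned to equal totals within each date, which left 33 rises and 20 falls, 48 of them among the 54. The part of depth in the neuron rises was not tested. Of the 15 genes that fell in MN1 cells and were tested in neurons, 9 had a value below 0 and 0 passed as lower, while Gm25313 passed as higher (log2 1.73, adjusted p = 0.0124), with 43, 107 and 115 CPM against 194, 406 and 55.8. The 4 mitochondrial genes called in MN1 cells had values below 0 that did not pass, with mt-Co1 at -0.57 and mt-Nd2 at -0.57 (adjusted p = 0.719 and 0.716). For mt-Cytb the value was -0.46 (adjusted p = 0.94), and for mt-Nd6 it was -0.05 (adjusted p = 0.9999). On neuron replicate 1 all 4 were higher with the mutant, as for mt-Co1 with 1464 CPM against 1322.

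**Figure D5:**
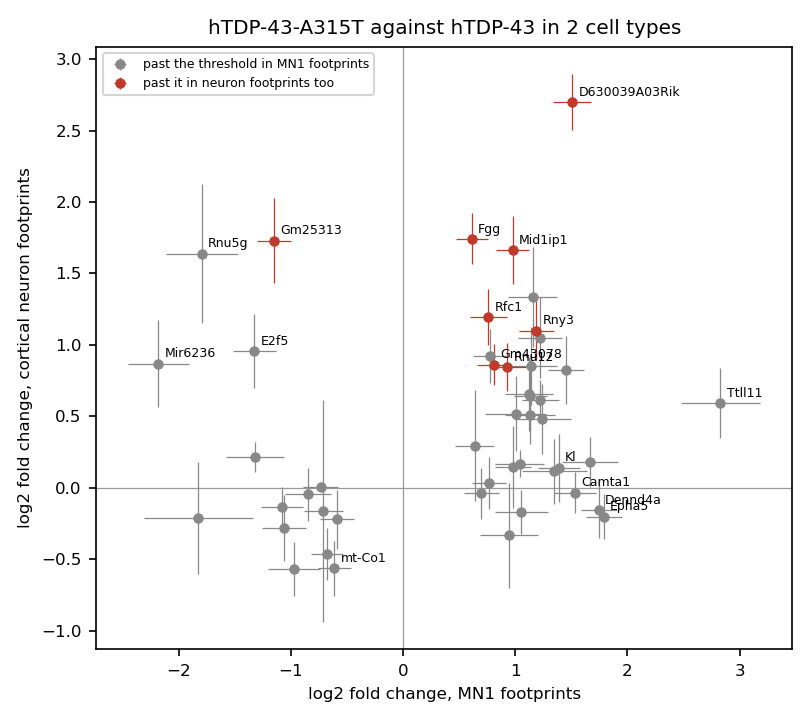
The log2 fold change between mutant and wild-type protein in MN1 footprints (horizontal axis) is set against that in cortical neuron footprints (vertical axis) for the 47 genes called in MN1 cells and tested in both, with standard errors. Red marks genes past the threshold in neurons too, 7 of which are higher in both cell types, and Gm25313 lies in the upper left.

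The difference between the cell types was itself tested as an interaction. It was past the threshold in 11 of 9908 genes (0.111%), 5 with the higher value in MN1 cells (0.0505%) and 6 with the lower (0.0606%), and in 0 without the block (215 at an unadjusted p below 0.05). The mutant raised footprints more in MN1 cells than in neurons for Ttll11 (log2 difference 2.23), Epha5 (1.88), Dennd4a (1.87), Camta1 (1.47) and Tspan5 (1.45). Epha5 was well measured in neurons, with 324, 438 and 1052 CPM in wild-type hTDP-43 cultures against 400, 322 and 683 in mutant ones, so the groups overlapped there. Dennd4a had 68.9, 86.7 and 57.4 CPM against 69, 61.2 and 39.9, and Camta1 228, 291 and 191 against 227, 218 and 240, also with overlap. The U5 genes Gm25313 and Rnu5g, Mir6236 and E2f5 differed in the other direction. MN1 cells were transfected and treated with cycloheximide while the neurons were transgenic and untreated, so cell type and protocol cannot be told apart. In neurons, the mutation cannot be told apart from the transgenic line and the protein level.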

How the data were processed

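Ribosome-protected fragments of monosomes and fragmented poly(A) RNA were sequenced from the same cultures. The authors clipped adapters (cutadapt 1.8.1), removed reads that Bowtie2 placed on annotated non-coding RNA, aligned the rest to GRCm38 with TopHat2 and counted unique alignments on exons with featureCounts 1.4.4 without strand. The deposited counts are raw counts for 45513 genes per library. Groups, dates and pairing came from the sample labels: same-numbered libraries of a cell type carry 1 date in their labels (another year for 1 GFP library), and those of MN1 cells deviated together from their groups over the genes tested (r = 0.323 in footprints, 0.400 in total mRNA). P-values cover no variation beyond these cultures. They rest mostly on a spread pooled over all genes, and little on that of each gene between its cultures.

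From the counts, low genes were removed (edgeR's filter at a minimum count of 10 and total of 15), libraries were scaled by TMM and genes tested with the quasi-likelihood test of edgeR 4.0.16 (R 4.3.3) with date as a block, and p-values were adjusted by Benjamini-Hochberg over all genes tested. The study's methods name DESeq on pairs of groups, so DESeq2 1.42.0 and fits without the block were among the alternatives. CPM used TMM factors from the 6 libraries of a library type in MN1 cells, logarithms used a prior count of 2, and standard errors are the absolute log2 fold change over the square root of F. Fits that leave out 1 library include the GFP libraries, and the lone library of a group is assumed to vary like the others. Intervals for ratios are exact, at 95%, and cover counting error only. Symbols, classes and exons came from GENCODE M21, and 44585 genes matched. Sequences and tRNA genes came from RefSeq (GRCm38.p6).

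Values per library are given for Tardbp, for the 18 largest rises and up to 12 largest falls with the same direction on both dates, for list members past the threshold or with most counts, for the genes with most reads and for the genes of the interaction tests, and further called genes are named. Names outside this rule were chosen after their values were seen. Members and lists were chosen with earlier results of these data known. The tRNA search and the footprint to mRNA ratio were added after seeing the data. One set of sequences is not reported here.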

Additional observations from a re-analysis of the deposited data

Results flagged for a closer look

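In 11 genes the effect of hTDP-43-A315T against hTDP-43 on footprints differed between MN1 cells and neurons by the test of the difference itself (edgeR, replicate block within each cell type, adjusted p from 4.06e-21 to 0.0181). The log2 difference, MN1 minus neurons, was 2.23 for Ttll11, 1.88 for Epha5, 1.87 for Dennd4a, 1.47 for Camta1 and 1.45 for Tspan5. It was -1.31 for Irf8, which rose in neurons (1.87) and had 0.51 in MN1 cells. For E2f5 it was -2.27, for Cldn34c1 -2.63, for Gm25313 -2.84, for Mir6236 -3.05 and for Rnu5g -3.48. Gm25313 fell in MN1 cells (-1.15) and rose in neurons (1.73, adjusted p = 0.0124). E2f5, Mir6236 and Rnu5g had positive values in neurons (0.96, 0.87 and 1.64) that did not pass there. Rnu5g had 7.3, 5.1 and 19.1 CPM with hTDP-43 in neurons (replicates 1, 2 and 3) against 27.5, 32.6 and 2.99 with the mutant. For Mir6236 the values were 41.3, 30.6 and 12.8 against 51.8, 218 and 11, so the replicates disagreed for both. Cldn34c1 was too low for the test in MN1 cells alone, with 3 and 39 counts for hTDP-43 against 6 and 7 for the mutant. Without the block none of the 11 passed. With it, the spread of each gene was taken from the trend over all genes (infinite prior degrees of freedom).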

How the results depend on the processing

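Of 54 footprint calls with the block, no replicate block left 0, DESeq2 1 with the block and 1 without it, and the fit of all 6 MN1 footprint libraries 25 (19 higher, 6 lower). RLE scaling gave 56, no filter on low counts 60, a mean of at least 50 counts 46, protein-coding genes 37 and thinning 53. A robust spread, chosen after seeing the data, gave 38 and lost D630039A03Rik, Kl and Rny3 among others. Leaving out a library gave 39 to 63 calls, and 12 of the 54 genes passed in all 4 of these fits. For total mRNA (76 calls) the counts were 0 with no replicate block and 60 without hTDP-43 replicate 1, 206 without hTDP-43 replicate 2, 217 without hTDP-43-A315T replicate 1 and 578 without hTDP-43-A315T replicate 2, for efficiency (9) 4 with the culture block and 0 with no replicate block, for the cell type difference (11) 0, and for neurons (15) 0 with no replicate block and 1, 47 and 42 without replicates 1, 2 and 3. The sign reversed without a library for Cybb (-0.14 to 1.70), Arpp21 (-0.16 to 1.63), Gm25732 (-2.33 to 0.64), Akap12 (-2.34 to 0.15), Crx (-1.999 to 1.33), E2f5 (-1.87 to 0.38) and Chrd (-1.67 to 0.38). The cause was not tested. Library depth limits genes under 9.03 CPM in hTDP-43 replicate 2.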
